A study of Homo sapiens with 6 samples.

Results

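Fc receptors bind the constant part of antibodies, and 9 genes of this system were followed here: 6 receptor genes (FCGR1A, FCGR2A, FCGR2B, FCGR3A, FCAR and FCGRT), the signalling chain genes FCER1G and TYROBP, and the kinase gene SYK. They were picked by symbol, and all 9 were found among the 61517 genes of the deposited count table. Poly-A RNA was sequenced in 6 libraries of THP-1, a human monocytic leukaemia line, so both groups rest on a single line. Per the series' design text, the cells had been turned into macrophages and pyroptosis, a lytic inflammatory death, had been set off with lipopolysaccharide (LPS) and ATP. In 3 libraries the cells had also received ruxolitinib, an inhibitor of the kinases JAK1 and JAK2 (the treatment label spells the drug Lukotinib), and 3 libraries without the drug are called control. Both groups were therefore stimulated. Doses, times and the agent used for differentiation are unknown here, and unstimulated cells were not analysed here.

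In macrophages, antibody-coated particles are gripped by Fc receptors and taken up by phagocytosis. The gamma receptors bind IgG and FCAR binds IgA. FCGR1A, FCGR3A and FCAR carry no signalling motif in their own tails and work through the FCER1G chain, whose ITAM motif is phosphorylated by Src-family kinases such as LYN and then recruits SYK. FCGR2A has an ITAM-like motif in its own tail, whereas FCGR2B carries an inhibitory motif (ITIM) that recruits the phosphatase SHIP1, encoded by INPP5D. TYROBP, also called DAP12, is a second ITAM chain that serves other myeloid receptors. FCGRT encodes the heavy chain of FcRn, which pairs with beta-2 microglobulin and rescues IgG from degradation inside cells. FCGR1A is a textbook target of interferon, which acts through the kinases that ruxolitinib inhibits.

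Total counts ranged from 17757595 to 24533979 per library, and a gene without a single count could still have had up to 0.119 to 0.169 CPM (counts per 1000000 counts, TMM-scaled), for counting error only. The THP-1 label was checked against 12 macrophage and monocyte genes. CD14, CD68, CSF1R, ITGAM and LYZ were present in every library, and the mannose receptor gene MRC1 was near the detection limit with 18 counts in control and 15 with ruxolitinib. Of the 11 tested, 9 fell, 1 (LYZ) rose and 1 did not pass, with a median log2 fold change of -0.50. Over all tested genes, 16.1% were called lower and 13.6% higher. The LYZ rise lost its call in 12 of 17 alternative fits. Of the 6 marker lists of other blood cells, the T cell list summed to at most 0.161 CPM in any library, with CD3D, CD3E and CD3G at 0 counts, and the mast cell and basophil list to at most 0.944 CPM, with FCER1A and TPSAB1 at 0. The B cell list summed to 3.06 to 3.38 CPM in control and 1.82 to 1.98 CPM with ruxolitinib, and in it CD22 went from 1.27 ± 0.305 to 0.390 ± 0.0257 CPM. CD22 was picked after its values were seen and met the low-count filter through the control libraries, in which it was higher. The NK cell list summed to 222 to 227 CPM and 186 to 222 CPM, nearly all of it from NCAM1, which did not pass. In the NK cell list the cytotoxic granule gene NKG7, picked after its values were seen, fell from 5.67 ± 0.660 to 1.49 ± 0.392 CPM (SD, n = 3), while GNLY, a granule gene too, had 1.28 and 1.72 CPM and did not pass. Neutrophil markers summed to 1.87 to 3.58 and 2.36 to 2.47 CPM, with CEACAM8 at 0 counts, and dendritic cell markers to 25.99 to 26.3 and 32.3 to 33.1 CPM, with CLEC9A at 0. Within the dendritic cell list the genes went different ways. LAMP3 rose from 15.5 ± 1.18 to 24.4 ± 0.612 CPM, CD1C fell from 9.52 ± 1.40 to 7.21 ± 0.476 CPM, and FLT3 did not pass. The part of these markers in the results below was not tested.

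All 8 members of the Fc receptor system that were high enough to test fell with ruxolitinib, by log2 fold changes between -0.19 for TYROBP and -1.50 for FCGR2B. Of all 14051 tested genes, 29.7% passed the threshold (adjusted p under 0.05 by edgeR's quasi-likelihood test with Benjamini-Hochberg adjustment over all tested genes), and 16.1% passed it as lower. The median log2 fold change was -0.62 over the 8 members and -0.01 over all tested genes. In each of the 8, all 3 ruxolitinib libraries lay under all 3 control libraries, which was the case for 23.8% of tested genes (44.2% did not overlap in either direction). A fall by a log2 fold change of at least 1 past the threshold was found in 1 of the 8, FCGR2B, and in 2.97% of tested genes. FCGR3A was too low to test. The libraries are bulk samples, so fewer cells expressing a gene and less RNA per cell cannot be told apart. Whether a group's libraries came from separate cultures is not stated, so the p-values speak only of the spread among these 6 libraries, and that spread may be technical.

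**Figure D1:**
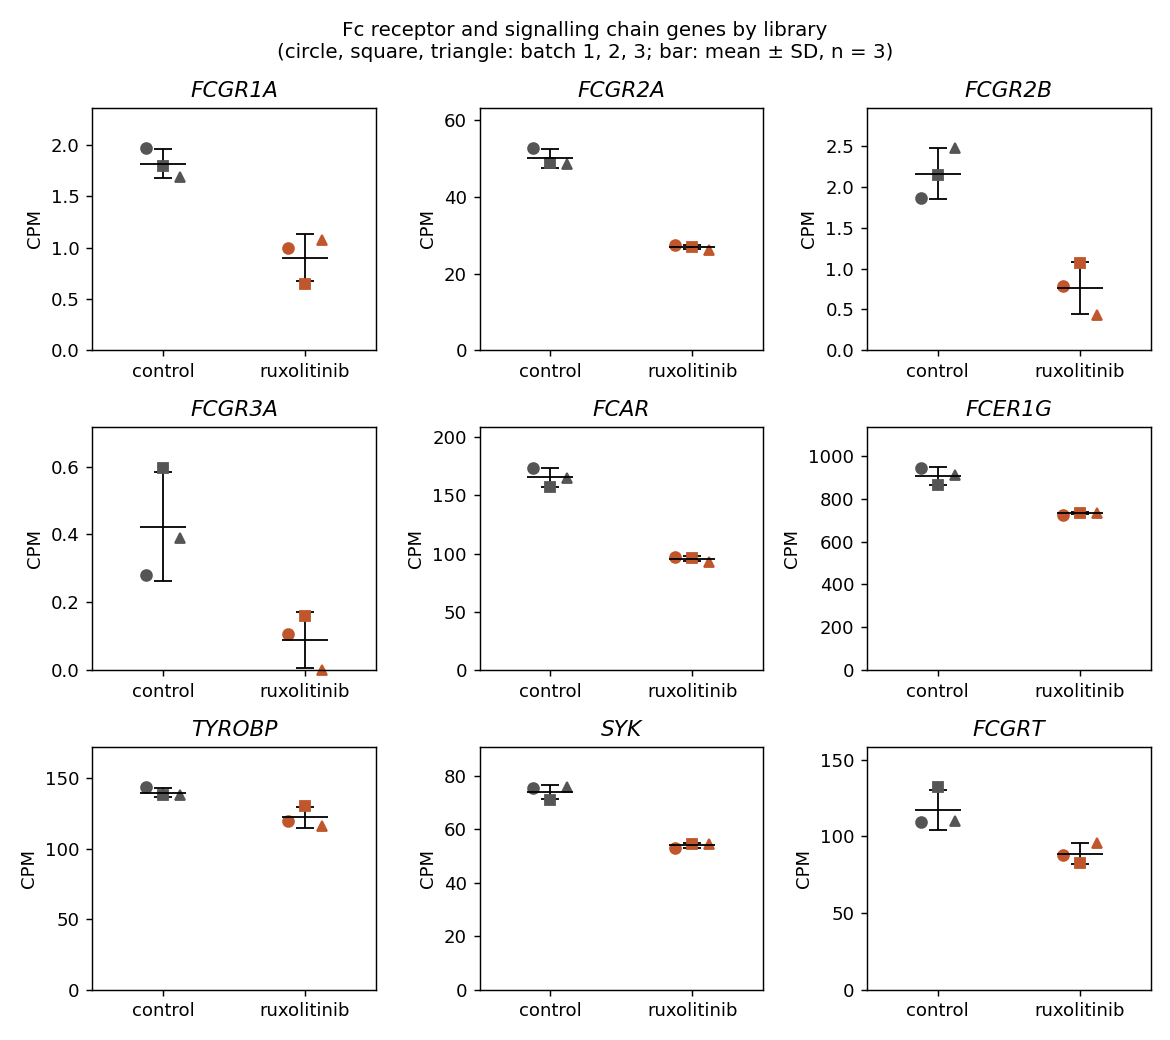
CPM (scaled by TMM factors) of each of the 9 genes in the 6 libraries, control in grey and ruxolitinib in orange, with a vertical axis from 0 in each panel; point shapes give the batch number and bars the mean ± SD of 3 libraries. In the 8 tested genes every ruxolitinib point lies under every control point, with the widest gap relative to the level in FCGR2A, FCGR2B and FCAR.

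Among the activating IgG receptors, FCGR2A, the gene of the low-affinity receptor CD32A, had the highest level. Its level was 52.8, 48.9 and 48.5 CPM in control replicates 1 to 3 and 27.4, 27.0 and 26.3 CPM in ruxolitinib replicates 1 to 3. The groups were far apart, and the ruxolitinib libraries lay close to each other. On the log2 scale FCGR2A fell by 0.89 ± 0.06 (SE, 3 libraries a group, edgeR adjusted p = 4.8e-07), or 53.8% of the control level. FCGR2A lies on chromosome 1 at 161505430 to 161524013 (GRCh38, plus strand).

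FCGR1A encodes CD64, the high-affinity IgG receptor, and lies on the same chromosome at 149782671 to 149792518. It was scarce: 35, 45 and 39 counts in control and 19, 12 and 20 counts with ruxolitinib, or 1.97, 1.79 and 1.69 CPM against 0.996, 0.642 and 1.07 CPM. Every ruxolitinib library was lower than every control library, and ruxolitinib replicate 2 was the lowest. The log2 fold change was -0.998 ± 0.26 (edgeR adjusted p = 0.0135), with a 95% interval from -1.57 to -0.42. The call was lost by DESeq2 (adjusted p = 0.0612), when ruxolitinib replicate 2 was left out (0.0532), and when the pair of libraries of batch 1 (0.1004) or of batch 2 (0.0507) was left out. FCGR1A has near-identical copies: 55.4% of the distinct 50-base words in its annotated transcripts also occur in FCGR1B or FCGR1CP, so its reads could have been split. FCGR1B had 0.609 ± 0.0476 CPM in control and 0.336 ± 0.0770 CPM with ruxolitinib and did not pass (adjusted p = 0.122). With the counts of FCGR1A, FCGR1B and FCGR1CP added up and tested as 1 gene, the libraries held 53, 61 and 54 counts in control and 28, 17 and 29 with ruxolitinib (log2 fold change -0.97 ± 0.25, edgeR adjusted p = 0.0110; 29.7% of 14049 genes passed in that fit). In GENCODE 29 an antisense gene (ENSG00000233030) shares 561 exon bases with FCGR1A, 18.7% of its exon length, and the histone gene H2BC18 on the opposite strand shares 177. The antisense gene was higher than FCGR1A, at 100, 133 and 91 counts in control and 58, 49 and 58 with ruxolitinib, and it also fell (-0.75 ± 0.18, edgeR adjusted p = 0.00731, but 0.0884 without the batch 1 pair). How strand was handled in the counting is not given in the sources, so reads from FCGR1A and these genes cannot be told apart in the shared bases.

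The bases before the start sites of 4 members are shown because ruxolitinib blocks signals that end in STAT factors, and because PU.1 is the master transcription factor of the myeloid lineage. They were read from RefSeq's promoter windows (GRCh38.p14, 250 bases before to 50 after the start), which held 15 windows for 8 of the 9 genes. Each line gives the 120 bases before the RefSeq start, 5′ to 3′ along the gene's strand, with matches to the searched motifs in capitals. Motif distances are counted from the RefSeq start too. The gene positions given elsewhere are from GENCODE, and the starts differ. The GENCODE starts of FCER1G (161215234), FCGR1A (149782671) and FCGR2A (161505430) lie inside the printed lines, which therefore run past them. All 4 are on the plus strand, FCGR1A at chr1:149782574-149782693, FCGR2A at chr1:161505337-161505456, FCGR2B at chr1:161663023-161663142 and FCER1G at chr1:161215175-161215294.
FCGR1A: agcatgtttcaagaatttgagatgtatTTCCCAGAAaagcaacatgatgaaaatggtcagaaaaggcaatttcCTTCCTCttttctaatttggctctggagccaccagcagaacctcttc
FCGR2A: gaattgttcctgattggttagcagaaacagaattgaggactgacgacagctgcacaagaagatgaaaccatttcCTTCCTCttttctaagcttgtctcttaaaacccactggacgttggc
FCGR2B: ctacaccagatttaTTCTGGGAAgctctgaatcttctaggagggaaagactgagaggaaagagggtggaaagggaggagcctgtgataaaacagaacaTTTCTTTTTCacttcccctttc
FCER1G: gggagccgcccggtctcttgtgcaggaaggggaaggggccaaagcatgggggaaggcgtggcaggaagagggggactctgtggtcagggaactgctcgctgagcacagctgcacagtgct

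Both strands were searched for a STAT site called GAS (TTCNNNGAA), the core of the interferon-stimulated response element or ISRE (GAAA, any 2 bases, GAAA), a PU.1 core (GAGGAAG) and an NF-kB core (GGGA, any 3 bases, CCC). FCGR1A held the GAS match TTCCCAGAA, beginning 93 bases before the start, and a PU.1 core on the opposite strand 47 bases before it. FCGR2A held the PU.1 core at almost the same place, 46 bases before its start, and the FCGR1A and FCGR2A windows share an unbroken stretch of 20 bases around it, atttcCTTCCTCttttctaa. This pair was chosen after the matches were seen, and no other pair of windows was compared. FCGR2B held GAS matches 141 and 106 bases before the start of 1 of its windows, of which the second is in the line above, an ISRE core on the opposite strand 22 bases before, and a PU.1 core 180 bases before. The FCER1G window held none of the 4 motifs, which says only that these letters are not there. Over the 8 genes, GAS was found in 2 (FCGR1A and FCGR2B), the ISRE core in 2 (FCGR2B and FCGR3A), the PU.1 core in 6 (all but FCER1G and FCGRT) and the NF-kB core in 0. By window, the counts were 2, 2, 6 and 0 of 15, and some of the windows overlap. Of all 35116 windows in the table, 7.66% held GAS, 3.57% the ISRE core, 13.6% the PU.1 core and 7.59% the NF-kB core. A match is a description of letters and was not tied to binding. SPI1, which encodes PU.1, fell from 66.0 ± 10.8 to 46.8 ± 2.68 CPM (log2 fold change -0.50 ± 0.11, edgeR adjusted p = 0.0117, but 0.0893 when ruxolitinib replicate 2 was left out and 0.0575 without the batch 3 pair). It was chosen after its values were seen. The part of SPI1 in the falls of the members was not tested.

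FCGR3A, the gene of CD16A, which is typical of NK cells and of a monocyte subset, was barely detected. It lies on chromosome 1 at 161541759 to 161550737 (minus strand). It had 5, 15 and 9 counts in control and 2, 3 and 0 counts with ruxolitinib, so the ruxolitinib libraries were at or under the limit that 0 counts allows. No fold is given. When no gene was filtered for low counts, FCGR3A passed as lower (edgeR adjusted p = 0.0225 over 30330 genes, of which 14.7% passed). Its near-copy FCGR3B, the neutrophil form, had 2 counts in control and 1 with ruxolitinib over 3 libraries each, and 27.4% of the 50-base words of FCGR3A also occur in FCGR3B. The NK cell genes NCR1, KLRD1 and KLRF1 were also near the limit, with 14, 13 and 17 counts over the control libraries and 10, 13 and 18 over the ruxolitinib libraries.

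FCGR2B, the inhibitory IgG receptor gene, had the largest log2 fold change of the 8 tested genes, at a low level. It lies on chromosome 1 at 161663147 to 161678654. Its libraries held 33, 54 and 57 counts in control and 15, 20 and 8 with ruxolitinib, or 1.86, 2.15 and 2.47 CPM against 0.787, 1.07 and 0.429 CPM. The groups did not overlap, and the ruxolitinib libraries spread more than 2-fold among themselves. The log2 fold change was -1.50 ± 0.30 (edgeR adjusted p = 0.00290), with a 95% interval from -2.17 to -0.84. The filter on low counts asks for enough counts in 3 libraries, which the control group met alone, so the gene would have been tested however low it was with ruxolitinib. Of its 50-base words, 12.5% also occur in FCGR2A or the pseudogene FCGR2C. FCGR2C itself had 4, 10 and 5 counts in control and 0, 0 and 3 with ruxolitinib. The summed counts of FCGR2A, FCGR2B and FCGR2C fell by 0.92 ± 0.06 on the log2 scale (edgeR adjusted p = 3.0e-07). In the control libraries FCGR2A alone gave 938, 1228 and 1118 of the 975, 1292 and 1180 summed counts. The sum therefore follows FCGR2A and cannot speak for FCGR2B.

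The ratio of activating FCGR2A to inhibitory FCGR2B counts is free of scaling between libraries. It was 28.4, 22.7 and 19.6 in control and 34.8, 25.3 and 61.3 with ruxolitinib. The groups overlapped, with ruxolitinib replicate 2 inside the control range and replicate 3 far above it. The log2 ratio averaged 4.54 ± 0.27 (SD) in the control libraries and 5.24 ± 0.65 in the ruxolitinib libraries (n = 3 each, exact two-sided permutation p = 0.2). With 3 libraries a group this test cannot go below 0.1, so it says nothing on whether the balance between the 2 receptor genes moved.

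FCAR, the gene of the IgA receptor CD89, had the highest level per length of the 6 receptor genes. It had 174, 157 and 165 CPM in control and 96.9, 96.5 and 92.9 CPM with ruxolitinib. All 3 ruxolitinib libraries were close together and well under the control libraries. The fall was of the same order as for FCGR2A, with a log2 fold change of -0.79 ± 0.05 (edgeR adjusted p = 2.8e-07), or 57.8% of the control level. FCAR lies on chromosome 19 at 54874248 to 54890472.

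The chain genes FCER1G and TYROBP had smaller log2 fold changes than the leukocyte receptor genes FCGR1A, FCGR2A, FCGR2B and FCAR. FCER1G, the shared gamma chain, was at 946, 863 and 911 CPM in control and 727, 735 and 736 CPM with ruxolitinib. The drug libraries differed by only a few CPM, and the lowest control library was above all of them. Its log2 fold change was -0.31 ± 0.05 (edgeR adjusted p = 3.2e-04), or 80.8% of the control level. TYROBP had 144, 138 and 138 CPM in control and 120, 130 and 116 CPM with ruxolitinib. Its groups came close to each other without overlapping, and the log2 fold change was -0.19 ± 0.05 (edgeR adjusted p = 0.0144). This TYROBP call was lost with the batch number as a block (adjusted p = 0.0579), without control replicates 1 (0.0958) or 3 (0.0616), without ruxolitinib replicates 1 (0.0823) or 3 (0.0524), and without the library pair of batch 1 (0.245) or 3 (0.0945). SYK, the kinase that docks on phosphorylated ITAMs, had 75.5, 71.0 and 75.8 CPM in control and 52.9, 54.7 and 54.4 CPM with ruxolitinib, and these groups were clearly separated. SYK fell by 0.46 ± 0.05 on the log2 scale (edgeR adjusted p = 3.9e-05). FCER1G lies on chromosome 1 at 161215234 to 161220699, TYROBP on chromosome 19 at 35904401 to 35908295 (minus strand) and SYK on chromosome 9 at 90801787 to 90898549.

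Set against FCER1G in the same library, FCGR1A, FCGR2A and FCAR were lower with ruxolitinib in all 3 libraries than in any control library. These count ratios do not depend on scaling, and they were not computed for FCGR2B and FCGRT. FCGR2A had 5.58, 5.66 and 5.32 counts per 100 FCER1G counts in control and 3.77, 3.68 and 3.57 with ruxolitinib. FCAR had 18.4, 18.2 and 18.1 against 13.3, 13.1 and 12.6, and its control libraries were nearly alike. FCGR1A had 0.208, 0.207 and 0.186 against 0.137, 0.0873 and 0.146. The differences in mean log2 ratio were -0.59 for FCGR2A, -0.49 for FCAR, -0.73 for FCGR1A and -0.15 for SYK, and in these 4 the groups did not overlap (exact two-sided permutation p = 0.1 each, the smallest that 3 against 3 allows, and 0.175 after Benjamini-Hochberg adjustment over 7 ratios). TYROBP per 100 FCER1G counts overlapped between groups, at 15.2, 16.0 and 15.2 against 16.5, 17.7 and 15.8 (difference 0.11, exact permutation p = 0.2). With this number of libraries none of the 7 ratios could pass the threshold.

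**Figure D2:**
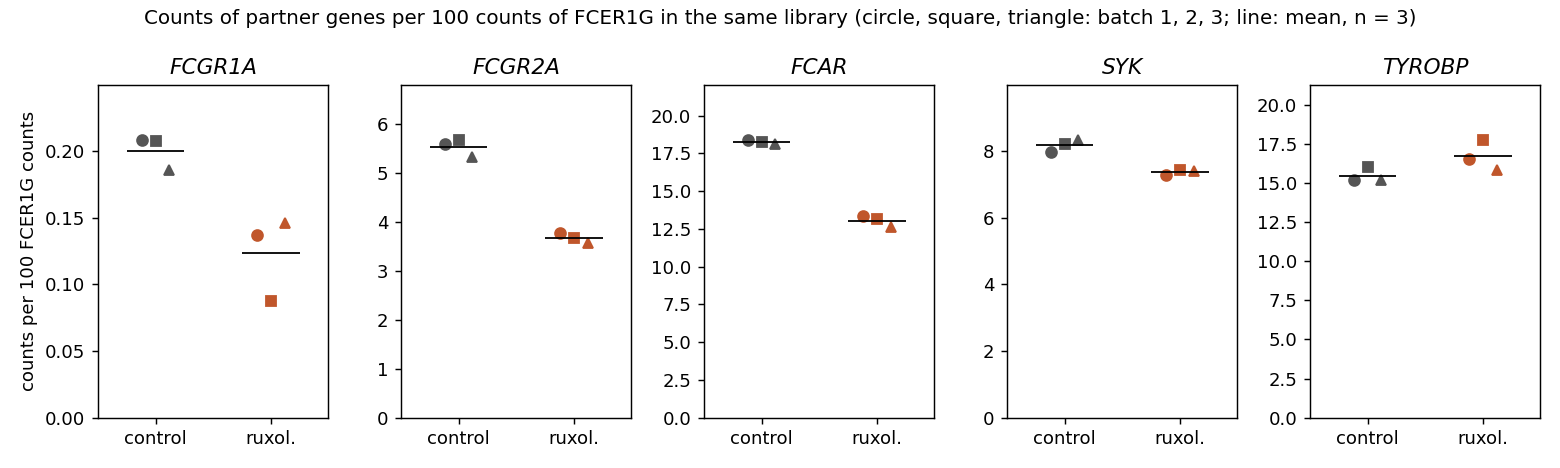
Counts of FCGR1A, FCGR2A, FCAR, SYK and TYROBP per 100 counts of FCER1G in the same library, control in grey and ruxolitinib in orange, 1 point per library with the group mean as a line and axes from 0. FCGR2A goes from 5.32 to 5.66 in control to 3.57 to 3.77 with ruxolitinib, while the TYROBP groups overlap.

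FCGRT, the FcRn heavy chain gene, had 109, 132 and 110 CPM in control and 87.9, 82.6 and 95.9 CPM with ruxolitinib. Control replicate 2 was the highest library, and the groups did not overlap. The log2 fold change was -0.40 ± 0.08 (edgeR adjusted p = 0.00611), and it was -0.31 when control replicate 2 was left out and -0.25 without the batch 2 pair, still past the threshold in each. B2M, the light chain, averaged 8190 CPM in control and 7758 CPM in the ruxolitinib libraries and did not pass (log2 fold change -0.08, 95% interval -0.20 to 0.04, edgeR adjusted p = 0.320), except without both libraries of batch 2 (-0.15, adjusted p = 0.00596). FCGRT per 100 B2M counts was 1.28, 1.68 and 1.35 in control and 1.149, 0.999 and 1.31 with ruxolitinib, so these groups overlapped (exact two-sided permutation p = 0.2). FCGRT lies on chromosome 19 at 49506816 to 49526333.

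Levels of different genes were compared as CPM per kilobase of merged exons. In control, FCER1G stood at 941 ± 43.0, followed by TYROBP at 154 ± 3.59, FCAR at 69.9 ± 3.45, FCGRT at 28.1 ± 3.11, SYK at 14.2 ± 0.517 and FCGR2A at 9.42 ± 0.445. FCGR1A at 0.606 ± 0.0468, FCGR2B at 0.325 ± 0.0464 and FCGR3A at 0.143 ± 0.0542 came last. With ruxolitinib the order was the same, from FCER1G at 760 ± 5.20 to FCGR3A at 0.0299 ± 0.0276. No pair of neighbours in this order had overlapping values over the 3 libraries of a group, in either group. The chain gene FCER1G was thus at a higher level per length than the summed receptor genes that need it, in control and with the drug.

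**Figure D3:**
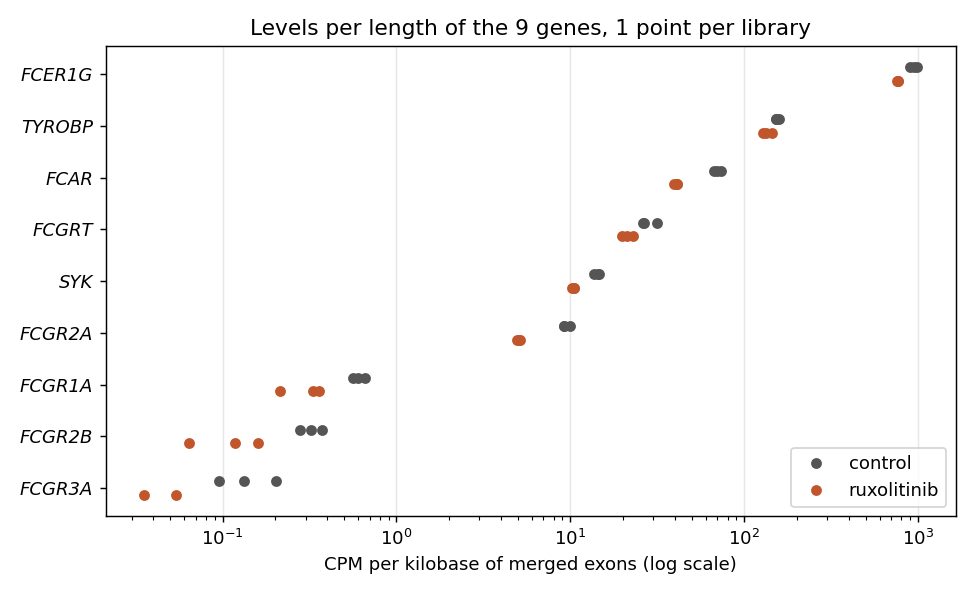
Level of each gene in CPM per kilobase of merged exons on a log axis, 1 point per library, control in grey and ruxolitinib in orange. The 9 genes keep the same order in both groups, from FCER1G down to FCGR3A, whose ruxolitinib replicate 3 had 0 counts and cannot be drawn on this axis.

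Genes whose pattern over the 6 libraries was nearest to that of a member were sought by Pearson's r of log2 CPM. For each of the 8 tested members, 3 genes were taken. All 24 had r between 0.996 and 0.9996. Their log2 fold changes were all negative, which follows from the choice, because all 8 members fell. For FCGR1A they were ERN1, FXYD5 and DGCR8, for FCGR2A SLAMF7, TREM2 and TSPAN31, for FCER1G SERPING1, ACTG1 and MR1, and for FCAR PTPRC, PSME1 and S100A9. Pearson's r ignores the size of a change. SERPING1 had a log2 fold change of -1.02 where FCER1G had -0.31, and DGCR8 had -0.22 where FCGR1A had -0.998. SERPING1 also lost its call in 11 of 16 alternative fits. The nearest patterns are a description of 6 libraries and carry no test.

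The next list held 31 genes: other receptors that signal through FCER1G or TYROBP, further chains, and cytokine receptor subunits. Of these, 18 were high enough to test, 12 fell, 1 rose and 5 did not pass. The median log2 fold change was -0.62 beside -0.01 over all tested genes. In the list 72.2% were called, and 29.7% of all tested genes were. CLEC5A, a C-type lectin that uses TYROBP, fell from 29.1 to 13.6 CPM (log2 fold change -1.10 ± 0.08). TREM2, a lipid-sensing receptor that uses TYROBP, fell by 0.60 ± 0.08 on the log2 scale, and CD300C by 0.65 ± 0.12. CSF2RB fell by 1.68 ± 0.11, the most in this list, but it encodes the beta chain shared by the GM-CSF and IL-3 receptors. The main route of these receptors is JAK2 and STAT5. IL3RA, a further IL-3 receptor chain gene added after its values were seen, had a log2 fold change of -0.21 ± 0.04. Its call was lost in 1 of 17 alternative fits. CSF2RB and IL3RA are both counted among the 12 that fell and in the median. PILRB, which pairs with TYROBP and was added after its values were seen, rose from 6.99 ± 2.08 to 11.1 ± 1.91 CPM (adjusted p = 0.0480), with control replicate 2 inside the ruxolitinib range. That call was lost with library totals alone (adjusted p = 0.0701), without control replicates 1 (0.0995) or 3 (0.113), without ruxolitinib replicates 2 (0.150) or 3 (0.143), and without the library pair of batch 1 (0.0898) or 3 (0.285). Without both libraries of batch 1, 6 genes of this list fell and 0 rose. In that fit 1143 of all 14368 tested genes were called lower and 840 higher.

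Of 36 activating kinases and adaptors downstream of the ITAM, 33 were tested, 12 fell, 0 rose and 21 did not pass (median -0.10). That is 36.4% called lower, where 16.1% of all tested genes were called lower and 29.7% in either direction. BTK, a Tec-family kinase, had 30.3, 25.7 and 29.5 CPM in control and 16.3, 17.8 and 15.7 CPM with ruxolitinib, with no overlap (log2 fold change -0.78 ± 0.09, edgeR adjusted p = 3.2e-05). VAV3, a guanine nucleotide exchange factor, fell by 0.56 ± 0.04 on the log2 scale, the PI3-kinase adaptor gene PIK3AP1 by 0.40 ± 0.05 and the Src-family kinase gene LYN by 0.36 ± 0.05. PLCG2, the phospholipase that SYK and BTK activate, averaged 37.1 CPM and, with the drug, 34.7 CPM (-0.10, 95% interval -0.23 to 0.03, edgeR adjusted p = 0.258).

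Among 26 genes of inhibitory receptors, phosphatases, adaptors and ubiquitin ligases, 25 were tested, 13 fell, 0 rose and 12 did not pass (median -0.33). This makes 52.0% called, all as lower, beside 16.1% of all tested genes called lower and 29.7% in either direction. INPP5D, which encodes the SHIP1 phosphatase that acts below FCGR2B, had 35.0, 37.9 and 37.2 CPM in control and 20.1, 20.1 and 19.4 CPM with ruxolitinib. These libraries separated fully, with a log2 fold change of -0.89 ± 0.07 (edgeR adjusted p = 9.96e-07). PTPN6, the phosphatase SHP-1, fell by 0.29 ± 0.05. The ITIM receptor genes LILRB4 and LAIR1 fell by 1.14 ± 0.06 and 0.93 ± 0.06. PTPRC, which encodes CD45, fell by 0.69 ± 0.05, and it is listed here as a phosphatase although it can also switch Src-family kinases on. The difference between the activating and the inhibitory list was not tested.

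Of 30 genes of the actin machinery that closes the phagocytic cup, 29 were tested, 8 fell, 0 rose and 21 did not pass (median -0.04). This makes 27.6% called, all as lower. Of all tested genes, 16.1% were called lower and 29.7% in either direction. The membrane-bending protein gene BIN2 fell by 0.76 ± 0.07 on the log2 scale, WIPF1, a partner of the WASP protein, by 0.83 ± 0.08, the actin-severing gelsolin gene GSN by 0.51 ± 0.05 and the Rac activator gene DOCK2 by 0.31 ± 0.06. With upper-quartile scaling 8 fell and 4 rose, where 1957 of all 14051 tested genes were called lower and 2318 higher. Without the library pair of batch 1 the counts were 5 and 0, where 1143 of 14368 tested genes were called lower and 840 higher.

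**Figure D4:**
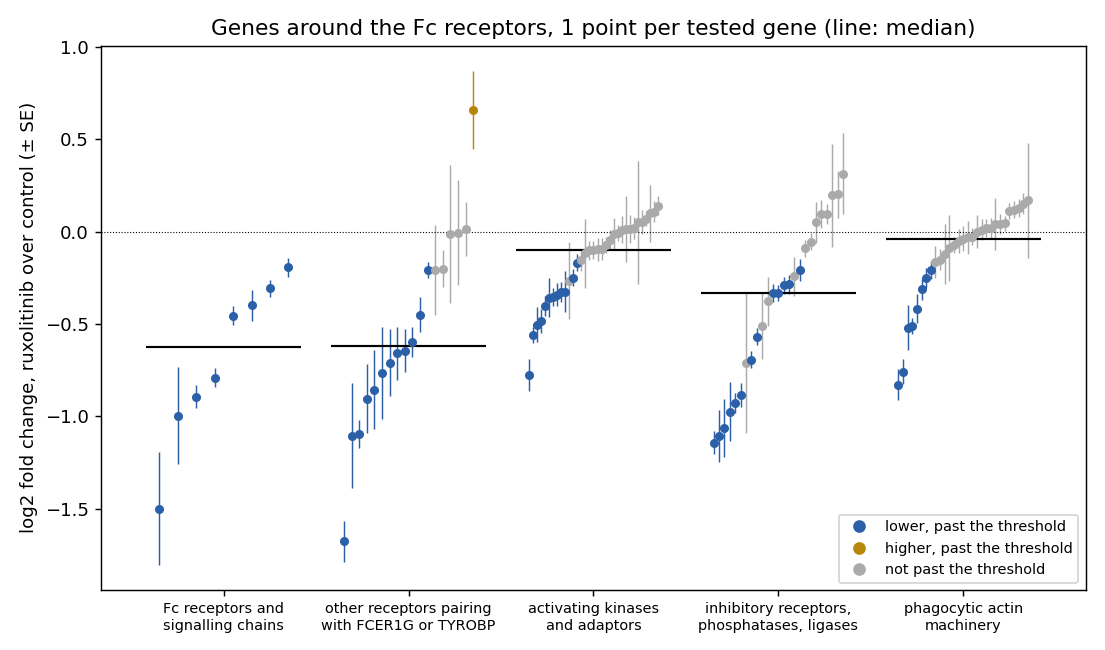
Log2 fold change (ruxolitinib over control) ± SE of every tested gene in 5 lists, 1 point per gene sorted within its list, coloured by whether it passed the threshold, with the list's median as a line. The medians are -0.62 for the Fc receptors and chains, -0.62 for other receptors that pair with FCER1G or TYROBP, -0.10 for activating kinases and adaptors, -0.33 for the inhibitory group and -0.04 for the actin machinery.

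Of 17 further immunoglobulin-binding or Fc receptor-like genes, 7 were tested, 2 fell, 2 rose and 3 did not pass, with a median log2 fold change of 0.10. Of all tested genes, 16.1% were called lower and 13.6% higher. TRIM21, an interferon-induced cytosolic receptor for antibody that enters cells with a pathogen, had 79.1, 71.5 and 78.4 CPM in control and 30.4, 29.5 and 27.5 CPM with ruxolitinib. No library of one group came near the other, and the log2 fold change was -1.39 ± 0.06 (edgeR adjusted p = 1.2e-08). FCRLA, an intracellular Fc receptor-like gene, fell by 0.96 ± 0.18. The polymeric immunoglobulin receptor gene PIGR had 1.42 CPM in control and 2.39 CPM with ruxolitinib (0.75 ± 0.22, edgeR adjusted p = 0.0248), and the IgA and IgM receptor gene FCAMR had 0.313 and 0.710 CPM (1.147 ± 0.39, adjusted p = 0.0420). FCAMR met the low-count filter through the ruxolitinib libraries, in which it was higher. Both rises were lost with the batch as a block (edgeR adjusted p = 0.0695 and 0.0747), leaving 2 lower and 0 higher genes. In that fit 20.7% of all tested genes passed. Both rises were also lost when control replicate 1, ruxolitinib replicate 1 or 2, or either pair of libraries of batch 1 or 2 was left out. FCER1A, the IgE receptor gene of mast cells and basophils, had 0 counts in all 6 libraries, so FCER1G was measured here without it.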

How the data were processed

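Raw counts of reads per gene, as whole numbers, were deposited by the authors in 1 table of 6 libraries. Per the submitters' processing notes, the build was hg38. For the aligner, the counting program, the annotation and the strand setting, the sources used here name nothing. Poly-A selection is stated per the labels' protocols. Columns were matched to samples by name, with the plus sign of the ruxolitinib titles missing in the header.

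The main test was edgeR's quasi-likelihood test (version 4.0.16, R 4.3.3, robust), with TMM factors. The filterByExpr filter (minimum count 10, minimum total 15) kept 14051 genes. P-values were adjusted by Benjamini-Hochberg over these. CPM use TMM-scaled totals, and standard errors come from the coefficient and its F statistic. Exon lengths and gene positions are from GENCODE 29 on GRCh38, which held 58340 of the identifiers. The procedure was tested on simulated data.

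The 9 genes and all lists were chosen with earlier results of these data known. Named genes are the members, up to 4 genes per list with the smallest adjusted p, SYK, LYN, PTPN6, INPP5D, BTK, PLCG2, B2M and TRIM21, and the nearest patterns; 1 gene of this rule is not reported here. SPI1, CD22, NKG7, PILRB, IL3RA, LYZ, ITGAM, GNLY, NCAM1 and the antisense gene overlapping FCGR1A were added after their values were seen. So were LAMP3, CD1C and FLT3, which were not recomputed under the alternatives below. Protein sequences were not used here.

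By label, control and ruxolitinib libraries pair up in batches 1, 2 and 3, and the pairing rests on this label. Within a batch, the paired libraries' deviations (each from its own group's mean) correlated over genes at -0.02, -0.19 and -0.10. The main fit had no block. The alternatives were the block, median-ratio and upper-quartile factors, library totals alone, 2 other filters, DESeq2 1.42.0, limma-voom (limma 3.58.1), sums over near-identical genes, and leaving out each library or batch.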

Additional observations from a re-analysis of the deposited data

How the results depend on the processing

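The log2 fold changes of 69 genes were recomputed under the alternatives, and 0 of them changed sign. These were the tested Fc receptor and chain genes, the list genes named (LAMP3, CD1C and FLT3 excepted) and the nearest patterns. Many were picked by a small adjusted p or by their pattern in these data, so a stable sign is partly set by that choice. Of the 8 tested Fc receptor and signalling chain genes, 6 to 8 passed as lower under every alternative with the same filter, 7 with the batch as a replicate block (only TYROBP was lost), and 7 to 8 when any single library was left out. FCGR2A, FCGR2B, FCER1G, FCGRT, FCAR and SYK passed in all 17 alternatives, while FCGR1A lost the call in 4 and TYROBP in 7. FCGR1A and FCGR2B rest on 8 to 57 counts per library, which sets their wide intervals. Over all genes, where 4175 passed, 2915 did so with the replicate block, 2941 to 4266 when a single library was left out, 1983 without both libraries of batch 1, 5034 without those of batch 2 and 2914 without those of batch 3. Without batch 1, where 14368 genes were tested, 6 of the receptors that pair with FCER1G or TYROBP, 5 of the phagocytic actin genes and 2 of the further immunoglobulin receptors passed. The latter count was also 2 by DESeq2 (where 3290 of all 14051 tested genes passed) and 2 with the block, and 2 to 4 without any single library, because the rises of PIGR and FCAMR were lost. The cause of these shifts was not tested.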
